A study of Mus musculus with 8 samples.

Results

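The DnaJ family, also called the Hsp40 family, was measured in thymus lobes of mice flown in space and of mice kept on the ground. Members were all genes whose symbol in the platform annotation begins with Dnaja, Dnajb or Dnajc. Each gene was represented by its single-gene probe set of highest mean over the 8 arrays. This gave 45 of the 19938 genes measured, 4 of class A, 13 of class B and 28 of class C. The 4 spaceflight mice were C57BL/6NTac animals, 8 weeks old, that spent 13 days aboard the shuttle mission STS-118. The 4 ground-control mice were of the same strain and age, matched for sex, and housed in the same type of animal enclosure module. All 8 animals were otherwise untreated as far as the labels say, each contributed 1 array, and the sex itself is not given in the labels. RNA came from whole lobes, so fewer cells of a type and less RNA per cell cannot be told apart. The comparison asks which transcripts of this organ, in which T cells mature, differed after the flight.

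DnaJ proteins are the partners that direct Hsp70 chaperones to their clients. Each carries a J domain, which stimulates the ATPase of Hsp70 so that it closes on an unfolded protein. Class A members have a zinc finger and a glycine-rich stretch next to the J domain, class B members have the glycine-rich stretch only, and class C members share only the J domain and otherwise differ widely. Different members work in the cytosol, the nucleus, the mitochondrion, the endoplasmic reticulum (ER) and on vesicles, each with the Hsp70 of that compartment, and some are induced by heat through the transcription factor HSF1 or by unfolded protein in the ER.

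Values are log2 expression, and a difference is spaceflight minus ground control on that scale. A narrower spread of values set spaceflight replicates 1 and 3 off from the remaining 6 arrays. Their interquartile range was 2.43 in both, against 2.68 to 2.95, and their correlations with the others were 0.954 to 0.984, against 0.986 to 0.994 among the others. With all 8 arrays, the difference between groups moved with signal. In the upper tercile of mean signal, above 7.07, the median difference over all genes was -0.13, and in the lower tercile, below 5.40, it was 0.10. These medians were 0.00 and -0.02 without spaceflight replicates 1 and 3. Of the 45 members 27 lay in the upper tercile, 13 in the middle and 5 in the lower. Thymocyte markers, 9 of 10 of them measured, lay at a median percentile of 98.7 of signal among all genes.

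No member passed the test over all probe sets. In limma's fit, 0 of 45 members were at an adjusted p under 0.05, where 0.0502% of all genes were, and the smallest adjusted p of a member was 0.252, for Dnajb2. At an unadjusted p under 0.05, 7 members (15.6%) were lower in spaceflight, where 7.00% of all genes were, and 1 was higher, where 3.05% were. Members were also set beside genes of like signal, without a test. In the upper tercile 4 of 27 members (14.8%) were lower at that threshold, against 12.6% of all genes there, and in the middle tercile 3 of 13 (23.1%) were, against 7.31%. Without spaceflight replicates 1 and 3 the counts were 2 of 27 and 1 of 13, where 296 and 281 of 6646 genes were lower. The median difference over the family was -0.07, against -0.02 over all genes, and 31 of 45 members (68.9%) had a lower mean, against 53.5% of genes. In the upper tercile 21 of 27 members (77.8%) had a lower mean, against 78.2% of genes there. In the middle tercile 9 of 13 (69.2%) did, against 57.7%, and in the lower tercile 1 of 5 (20%), against 24.7%. Centring arrays on their 75th percentiles gave a family median of 0.01, with 19 of 45 members lower and 38.2% of genes. The 7 lower members became 3 without spaceflight replicate 1, without spaceflight replicate 3, without both, or without ground-control replicate 3. They became 4 without ground-control replicate 1 or 4, and 11 without spaceflight replicate 4. Of all genes 3.68% were lower at that threshold without both flight replicates and 10.4% without spaceflight replicate 4, against 7.00% with all arrays. For the other omissions the share of all genes was not counted. Without both flight replicates, 0 of 45 members were at an adjusted p under 0.05 in limma's fit, where 0.0301% of genes were. The 27 members of the upper tercile had a median difference of -0.13, the same as all genes of that tercile. The 13 of the middle tercile had a median of -0.06, against -0.04 over genes of that tercile.

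**Figure D1:**
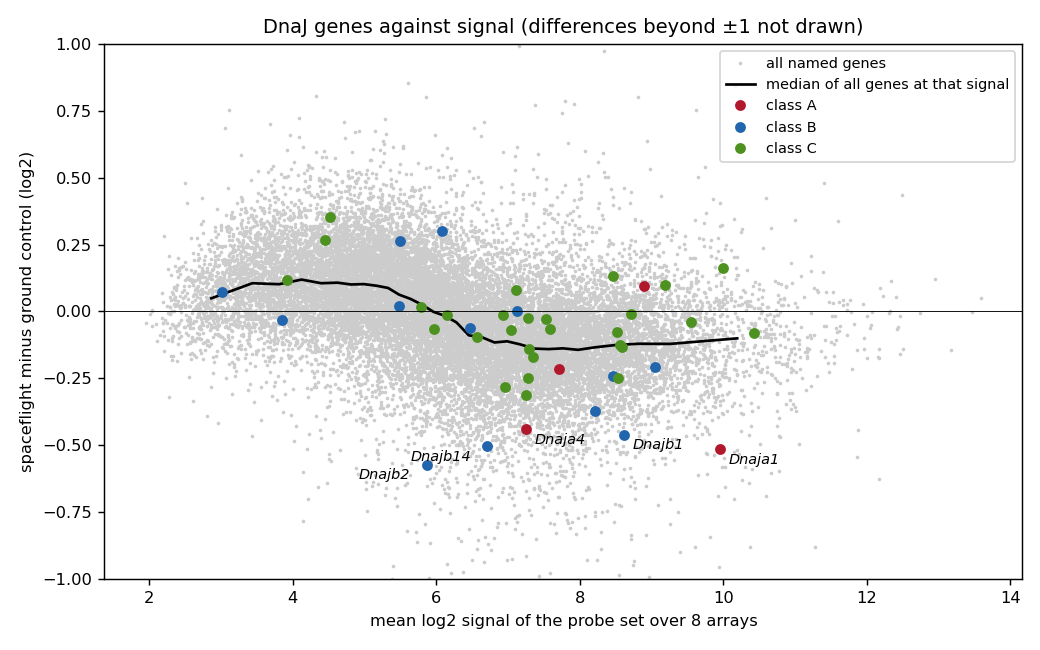
Difference between groups (vertical axis, log2, spaceflight minus ground control) against the mean log2 signal of each probe set over 8 arrays (horizontal axis). Grey points are named genes, and coloured points are the 45 DnaJ genes by class. The black line is the median of all 19938 named genes in 30 bins of signal. The 38 genes with differences beyond -1 or 1 lie outside the axis and are not drawn. Most members lie near the line, and Dnajb2, Dnajb14, Dnaja1, Dnajb1 and Dnaja4 lie below it, at -0.57 to -0.44.

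Of the 7 lower members, 4 were cytosolic proteins of classes A and B. That group held 8 genes (Dnaja1, Dnaja2, Dnaja4, Dnajb1, Dnajb2, Dnajb4, Dnajb5 and Dnajb6), with a median difference of -0.32, and also the single higher member. Without spaceflight replicates 1 and 3 the median was -0.10, with 3 lower and 0 higher. With all arrays 7.00% of all genes were lower at an unadjusted p under 0.05. In the upper tercile, where 5 of the 8 lie, 12.6% were, and the median difference was -0.13. Without those replicates 3.68% of all genes were lower. The compartments were chosen with earlier results of these data known. Dnajb2 encodes a co-chaperone with ubiquitin-binding motifs that passes clients to the proteasome and is best known from neurons. It read 5.45, 5.74, 5.39 and 5.76 in spaceflight replicates 1 to 4 and 6.11, 5.99, 6.38 and 6.15 in ground-control replicates 1 to 4. All 4 flight arrays lay below all 4 ground arrays, with spaceflight replicate 3 the lowest. The means were 5.58 ± 0.19 and 6.16 ± 0.16 (SD, n = 4 each), a level 1.49-fold lower in spaceflight (difference -0.57 ± 0.13 SE; limma adjusted p = 0.252). Without spaceflight replicates 1 and 3 the difference was -0.41.

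Dnaja1, a farnesylated class A protein that is a main cytosolic partner of Hsp70, read 9.54, 9.74, 9.64 and 9.85 in spaceflight and 10.52, 10.34, 9.98 and 9.98 on the ground. The groups did not overlap, although ground-control replicates 3 and 4 lay nearer to the highest flight array than to the other ground arrays. The level was 1.43-fold lower (difference -0.52 ± 0.14 SE; limma adjusted p = 0.380), and the difference was -0.41 without spaceflight replicates 1 and 3. A second probe set that the annotation gives to Dnaja1 alone differed by -0.40 ± 0.21 SE, and there the groups overlapped. A probe set shared with the microRNA gene Mir207 differed by 0.16. Dnaja4, a close relative of Dnaja1 that is also farnesylated, read 6.72, 6.97, 7.18 and 7.22 in spaceflight and 7.32, 7.47, 7.61 and 7.46 on the ground. Again all flight arrays were below all ground arrays. The level was 1.36-fold lower (difference -0.44 ± 0.13 SE; limma adjusted p = 0.396), and -0.37 without spaceflight replicates 1 and 3. Dnajb2, Dnaja1 and Dnaja4 were the 3 members at an unadjusted p under 0.01, a threshold that 2.05% of all genes passed in the lower direction. The same 3 were lower at an unadjusted p under 0.05 without spaceflight replicates 1 and 3, where 3.68% of genes were.

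Groups that did not overlap, with all flight arrays lower, were found for 4 of 45 members (8.89%), against 4.28% of all genes. In the upper tercile of signal they were found for 2 of 27 members (7.41%), against 7.48% of all genes there. In the middle tercile it was 2 of 13 members (15.4%), against 4.47%. The 4 members were Dnajb2, Dnaja1, Dnaja4 and the mitochondrial Dnajc19. No member had all flight arrays higher, against 1.73% of all genes.

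Dnajb1 is the founding Hsp40, a strongly heat-inducible protein that works with Hsp70 and Hsp110 to take protein aggregates apart. It read 8.02, 8.56, 8.05 and 8.89 in spaceflight and 8.94, 8.67, 8.89 and 8.86 on the ground. Spaceflight replicates 1 and 3 were low, while replicate 4 lay among the ground arrays. The difference was -0.46 ± 0.19 SE (1.38-fold lower; limma adjusted p = 0.476), and -0.12 without replicates 1 and 3. Dnajb4, another member counted as heat-inducible, differed by -0.21 ± 0.15 SE with all arrays and by 0.02 without those replicates. Together with Dnaja1 and Dnaja4 these made up the 4 members listed as heat-inducible. Their mean deviation from the ground-control mean was -0.69, -0.30, -0.50 and -0.14 in spaceflight replicates 1 to 4, and ran from -0.11 to 0.12 in the ground arrays. The flight arrays were all below the ground arrays, with replicate 4 close to the lowest of them. The median difference of these 4 was -0.45 with all arrays and -0.24 without replicates 1 and 3. All 4 lie in the upper tercile of signal, where the median over all genes was -0.13 and 0.00 in these settings. The list was chosen with earlier results of these data known, and 3 of the 4 were lower at an unadjusted p under 0.05. The separation of the 4 as a set was not tested.

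The remaining cytosolic members of classes A and B were not lower at that threshold. Dnaja2, which shares its domain plan with Dnaja1 and is the other main class A partner of Hsp70, read 8.86, 9.03, 8.83 and 9.06 in spaceflight and 8.93, 8.96, 8.84 and 8.66 on the ground. The groups overlapped, though spaceflight replicates 2 and 4 lay above all ground arrays, with a difference of 0.10 and a 95% interval from -0.15 to 0.34. For Dnaja1 the interval ran from -0.83 to -0.20. The difference between the 2 genes was not itself tested. Dnajb5 differed by -0.06 ± 0.09 SE. Dnajb6, which keeps polyglutamine and other aggregation-prone proteins soluble, was the single member higher at an unadjusted p under 0.05. It read 6.57, 6.21, 6.17 and 5.95 in spaceflight and 5.93, 5.83, 5.88 and 6.06 on the ground, so that spaceflight replicate 1 was highest and replicate 4 lay among the ground arrays. The difference was 0.30 ± 0.13 SE (limma adjusted p = 0.490), and 0.16 without spaceflight replicates 1 and 3. This probe set is annotated with a single Dnajb6 transcript. The other 4 probe sets annotated to Dnajb6 are shared with Gm4247, and they differed by 0.03 each.

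**Figure D2:**
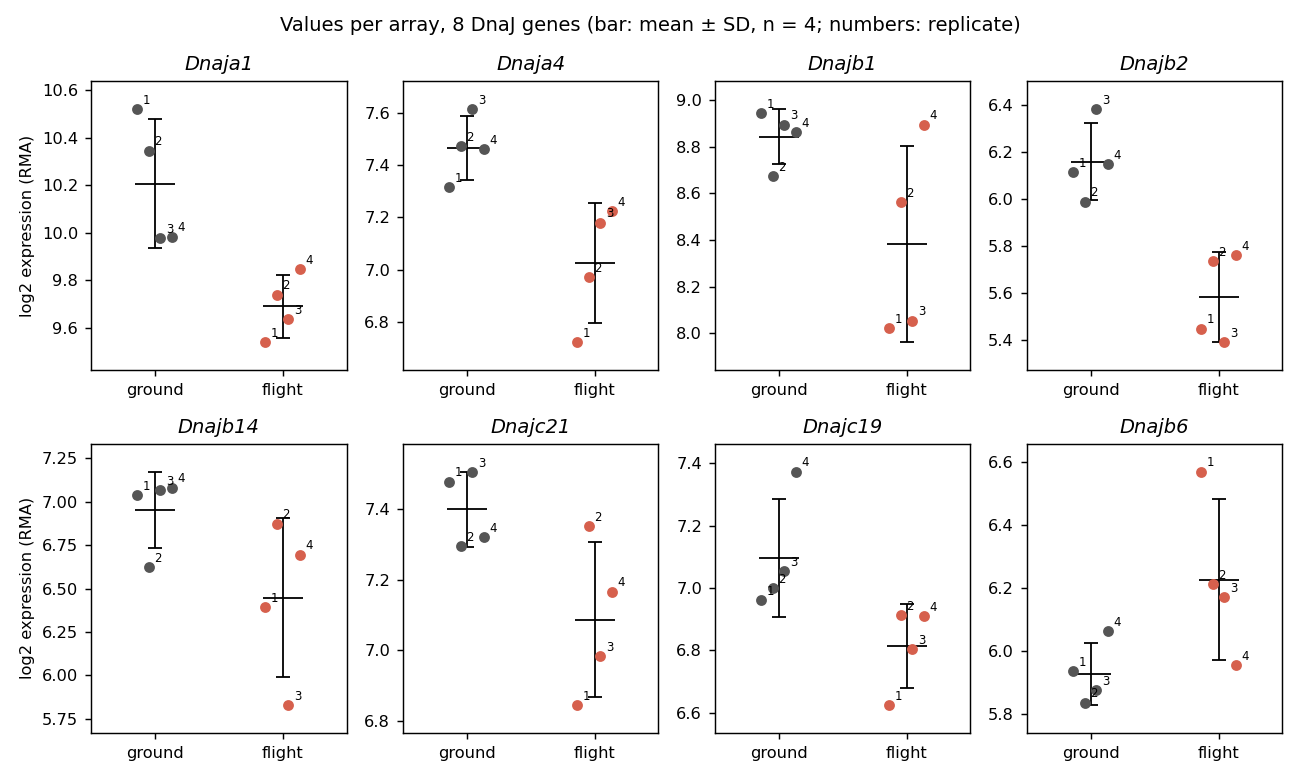
Log2 expression (vertical axes, a separate scale for each gene) of the 8 DnaJ genes at an unadjusted p under 0.05, in 4 ground-control and 4 spaceflight arrays. Points are arrays numbered by replicate, and bars give the mean ± SD (n = 4). The groups do not overlap for Dnaja1, Dnaja4, Dnajb2 and Dnajc19, and Dnajb6 is the gene with the higher flight mean.

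Promoter sequence was examined for the heat shock element, the run of alternating GAA and TTC units bound by HSF1. The reason was that 3 of the 4 heat-inducible members, a list chosen with earlier results known, were among the lower genes. All 4 lie in the upper tercile, where 12.6% of genes were lower. RefSeq promoters of build GRCm38.p6, from 250 bases before to 50 after a start site, were found for 37 of the 45 members (50 windows). The 3-unit element (GAA, any 2 bases, TTC, any 2 bases, GAA) on either strand was in 0.603% of all 32851 windows, and among members only Dnajb6 held it. The 2-unit forms, GAANNTTC (7.86% of all windows) and TTCNNGAA (8.52%), read the same on both strands and lie within the 3-unit element. At least 1 of them was in 15.1% of all windows and in 8 of the 50 member windows, a similar share, from 7 genes. These were Dnaja1, Dnaja4, Dnajb4, Dnajb6, Dnajc10, Dnajc27 and Dnajc5g. Of them only Dnaja1 and Dnaja4 were lower at an unadjusted p under 0.05, and Dnajc10, Dnajc27 and Dnajc5g differed by 0.10, 0.02 and 0.12. The windows of the lower members Dnajb1 and Dnajb2 held neither form. The bases before the most upstream start site are shown for the lower members Dnaja1, Dnajb1 and Dnajb2 and for the higher member Dnajb6, with matches in capitals. All are on the plus strand of GRCm38.p6, and lie at chr4:40722218-40722467, chr8:83607925-83608174, chr1:75236173-75236422 and chr5:29735648-29735897 in this order.
Dnaja1: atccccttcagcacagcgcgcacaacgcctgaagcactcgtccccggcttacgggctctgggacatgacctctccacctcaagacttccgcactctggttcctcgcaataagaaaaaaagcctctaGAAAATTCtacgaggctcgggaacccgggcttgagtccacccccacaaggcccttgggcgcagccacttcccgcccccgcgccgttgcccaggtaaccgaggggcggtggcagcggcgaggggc
Dnajb1: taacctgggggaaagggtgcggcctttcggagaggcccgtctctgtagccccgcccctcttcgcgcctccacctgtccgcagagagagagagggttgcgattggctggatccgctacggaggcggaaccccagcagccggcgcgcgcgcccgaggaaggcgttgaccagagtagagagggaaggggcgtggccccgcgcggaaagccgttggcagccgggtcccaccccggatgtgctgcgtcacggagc
Dnajb2: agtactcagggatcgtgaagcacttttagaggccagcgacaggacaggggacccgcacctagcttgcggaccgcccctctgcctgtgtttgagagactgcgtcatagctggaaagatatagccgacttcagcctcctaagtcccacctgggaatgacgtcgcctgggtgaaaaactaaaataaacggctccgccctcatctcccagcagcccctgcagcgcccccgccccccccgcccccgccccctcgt
Dnajb6: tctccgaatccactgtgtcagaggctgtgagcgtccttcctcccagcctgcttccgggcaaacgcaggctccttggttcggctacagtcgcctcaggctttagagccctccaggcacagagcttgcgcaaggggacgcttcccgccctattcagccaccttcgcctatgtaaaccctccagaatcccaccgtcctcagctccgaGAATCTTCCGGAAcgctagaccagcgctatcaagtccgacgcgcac

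The matches in the other heat-inducible members are shown with 10 bases on either side. Dnaja4 has 2, beginning 90 and 52 bases before a start site (plus strand, chr9:54699459-54699486 and chr9:54699497-54699524), and Dnajb4 has 1, beginning 14 bases before a start site (minus strand, chr3:152193842-152193869).
Dnaja4, first match: gaacctccgcGAACGTTCtgggcctatg
Dnaja4, second match: cctcctggcgGAACCTTCcgccggcgcc
Dnajb4: tcgttcgctgTTCTAGAAagtacagaga

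Members of the ER, some of which assist the Hsp70 BiP in its lumen while others sit in its membrane, had a median difference of -0.08 over 11 genes, and 9 of 11 had a lower mean (6 of 11 with arrays centred on their 75th percentiles). A lower mean was found for 53.5% of all genes and 78.2% of the upper tercile, where 8 of the 11 lie. With that centring 38.2% of all genes had one. Only Dnajb14, a membrane protein whose J domain faces the cytosol, was lower at an unadjusted p under 0.05. It read 6.39, 6.87, 5.83 and 6.69 in spaceflight and 7.04, 6.62, 7.07 and 7.08 on the ground. Spaceflight replicate 3 was the lowest array, and ground-control replicate 2 lay among the flight arrays. The difference was -0.51 ± 0.21 SE (1.42-fold lower; limma adjusted p = 0.483), and -0.17 without spaceflight replicates 1 and 3. A pair of probe sets shared between Dnajb14 and Pin4 differed by 0.21 and 0.22. Its paralog Dnajb12 differed by 0.001, with a 95% interval from -0.24 to 0.24.

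The ER members known to be induced by unfolded protein differed among themselves. Dnajb9 (ERdj4), which releases BiP onto the stress sensor IRE1, read 7.47, 8.32, 8.06 and 8.28 in spaceflight, against 8.35, 8.30, 8.53 and 8.44 on the ground. Spaceflight replicate 1 was low and replicate 2 lay among the ground arrays. The difference was -0.37 ± 0.18 SE, and -0.10 without spaceflight replicates 1 and 3. Dnajb11 (ERdj3), a soluble partner of BiP that binds unfolded proteins directly, differed by -0.24 ± 0.15 SE, and by 0.01 without those replicates. Dnajc3 (p58IPK), which carries tetratricopeptide repeats, differed by -0.08 ± 0.10 SE, and Dnajc10 (ERdj5), a disulfide reductase, by 0.10 ± 0.11 SE. Their 95% intervals were -0.29 to 0.14 and -0.15 to 0.35. The median of these 4 was -0.16 with all arrays and 0.00 without spaceflight replicates 1 and 3. Of the family's promoter windows that of Dnajc3 alone held the ER stress element (CCAAT and CCACG with any 9 bases between them), searched on both strands and found in 0.119% of all windows, at chr14:118937822-118937850 (plus strand, the match in capitals).
Dnajc3: cacaaCCAATCAGCGCCAACCACGacccg

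The other ER members, Dnajc1, Dnajc14, Dnajc16, Dnajc18 and Dnajc25, differed by -0.25 to -0.01. The most negative of them was Dnajc14 (-0.25 ± 0.13 SE), a membrane protein that takes part in receptor export.

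**Figure D3:**
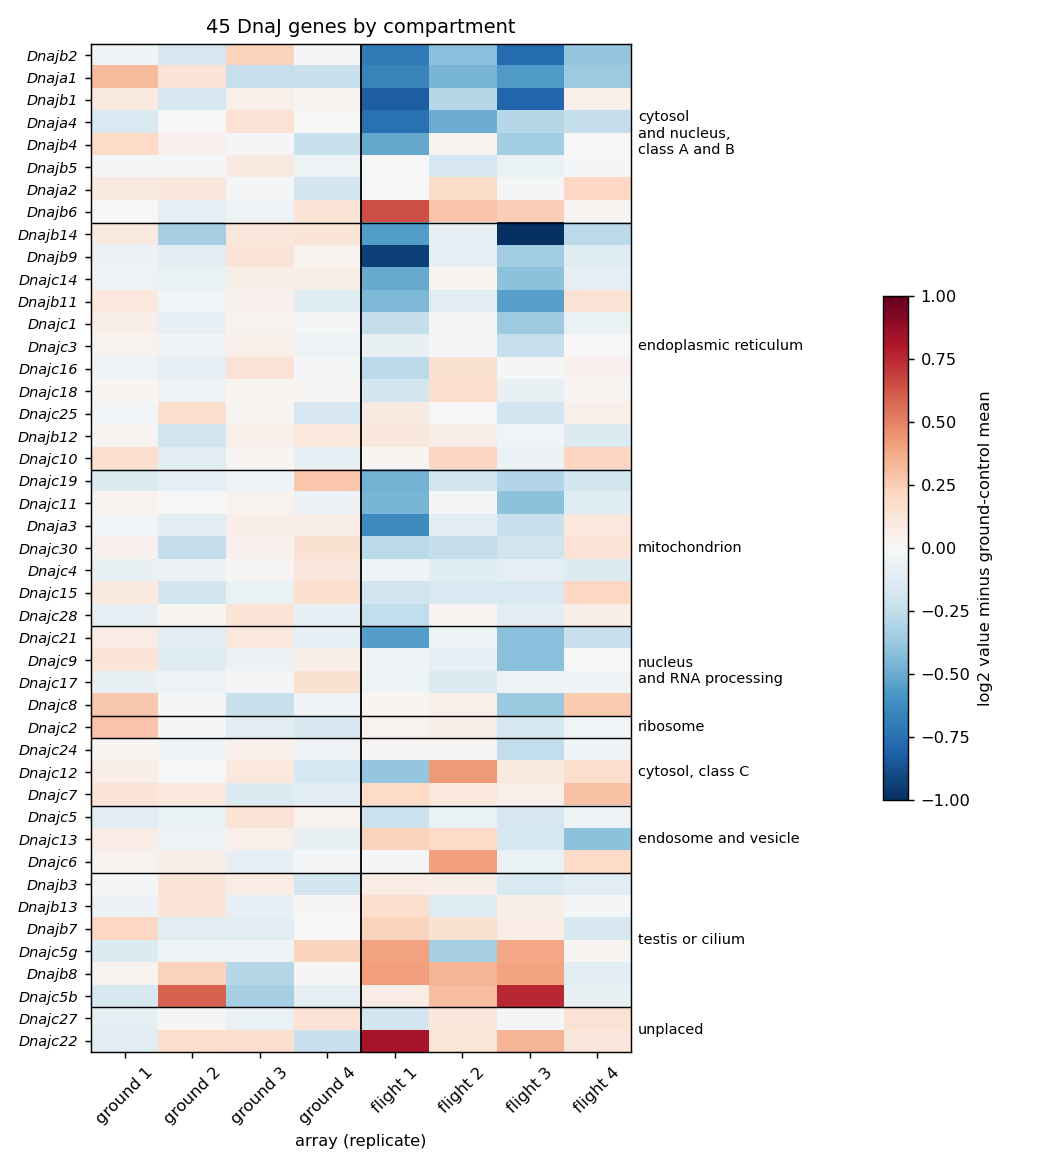
Log2 value of each of the 45 DnaJ genes minus its ground-control mean (colour, from -1 in blue to 1 in red, with Dnajb14 in spaceflight replicate 3 beyond the scale and drawn at its end) in 4 ground-control and 4 spaceflight arrays, with genes grouped by the compartment in which the protein works. Spaceflight replicates 1 and 3 hold most of the dark blue cells, and Dnajb2, Dnaja1 and Dnaja4 are blue in all 4 flight arrays.

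All 7 mitochondrial members had a lower mean in spaceflight, by 0.07 to 0.28, and the median was -0.14 with all arrays and -0.05 without spaceflight replicates 1 and 3, when 5 of 7 were lower, as they were with 75th-percentile centring. Lower means were found for 53.5% of all genes and 78.2% of the upper tercile, where 4 of the 7 lie. The share of all genes was 53.4% without those replicates and 38.2% with that centring. Dnajc19, part of the motor that pulls proteins through the inner membrane, read 6.62, 6.91, 6.80 and 6.91 in spaceflight and 6.96, 7.00, 7.05 and 7.37 on the ground. The groups did not overlap, but they nearly met, and ground-control replicate 4 was the highest array. The difference was -0.28 ± 0.12 SE (1.22-fold lower; limma adjusted p = 0.485), and -0.19 without spaceflight replicates 1 and 3. Dnajc11, a protein of the inner membrane's cristae junction complex, read 6.94, 7.39, 6.99 and 7.28 in spaceflight and 7.43, 7.40, 7.43 and 7.34 on the ground. Spaceflight replicates 1 and 3 carried its difference of -0.25 ± 0.12 SE, which was -0.07 without them. The class A member Dnaja3 (Tid1), a partner of mitochondrial Hsp70, read 7.19, 7.71, 7.59 and 7.92 in spaceflight and 7.79, 7.71, 7.89 and 7.88 on the ground. Its difference of -0.21 ± 0.15 SE came to -0.003 without spaceflight replicates 1 and 3. Dnajc4, Dnajc15, Dnajc28 and Dnajc30 differed by -0.14 to -0.07. Of these Dnajc15, the mitochondrial member of highest signal, differed by -0.08 ± 0.13 SE. Spaceflight replicate 1 was the lowest array for 6 of the 7 mitochondrial members, against 22.9% of all genes and 37.6% of the upper tercile.

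Among nuclear members, Dnajc21, which matures the large ribosomal subunit, read 6.85, 7.35, 6.98 and 7.17 in spaceflight and 7.48, 7.30, 7.50 and 7.32 on the ground. Replicate 2 of the flight group lay within the ground range. The difference was -0.31 ± 0.13 SE (1.24-fold lower; limma adjusted p = 0.474), and -0.14 without spaceflight replicates 1 and 3. The histone chaperone Dnajc9 differed by -0.13, and the splicing-associated Dnajc17 and Dnajc8 by -0.07 and -0.01 (± 0.15 SE for Dnajc8). Dnajc2, which anchors an Hsp70-like protein at the exit of the ribosome, differed by -0.03 ± 0.12 SE.

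The cytosolic class C proteins and those of vesicles were neither lower nor higher at an unadjusted p under 0.05 with all arrays. Dnajc7, which passes clients between Hsp70 and Hsp90, differed by 0.16 ± 0.11 SE, Dnajc12, a partner of the aromatic amino acid hydroxylases, by 0.08 ± 0.16 SE, and Dnajc24, an enzyme cofactor in diphthamide synthesis, by -0.07 ± 0.10 SE. Dnajc5, the cysteine string protein of secretory vesicles, differed by -0.13 ± 0.10 SE. Dnajc6 (auxilin), which strips clathrin from vesicles, differed by 0.13 ± 0.12 SE, and the endosomal Dnajc13 by -0.04 ± 0.15 SE. The 15 probe sets of Dnajc13 were all lower in spaceflight, by 0.04 to 0.27, with none at an unadjusted p under 0.05. Without spaceflight replicates 1 and 3, Dnajc6 (0.31) and Dnajc12 (0.30) were higher at an unadjusted p under 0.05, 2 of 45 members, where 3.27% of all genes were.

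The 6 members known from testis or cilia (Dnajb3, Dnajb7, Dnajb8, Dnajb13, Dnajc5b and Dnajc5g) lay in the lower or middle tercile of signal and differed by -0.03 to 0.27, with a median of 0.10. All genes of the lower tercile had the same median of 0.10, and without spaceflight replicates 1 and 3 the median of the 6 was -0.01. Dnajb8, of highest signal among the 6, differed by 0.26 ± 0.15 SE. Dnajb13, a protein of the ciliary radial spoke, differed by 0.02 ± 0.10 SE. Of the airway and ciliated epithelium markers, those of ciliated cells, Foxj1 and Tekt1, differed by -0.10 and 0.03. The secretory genes Scgb1a1, Bpifa1 and Scgb3a2 varied widely between arrays, and the sum of all 5 linear values ran from 188 to 6324 in spaceflight and from 4014 to 9663 on the ground. The 2 unplaced members were Dnajc22 and Dnajc27. Dnajc22 read 5.17, 4.47, 4.68 and 4.46 in spaceflight and 4.23, 4.52, 4.51 and 4.12 on the ground (difference 0.35 ± 0.17 SE, and 0.12 without spaceflight replicates 1 and 3), with spaceflight replicate 1 the highest. Dnajc27, which joins a J domain to a small GTPase, differed by 0.02 ± 0.11 SE.

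**Figure D4:**
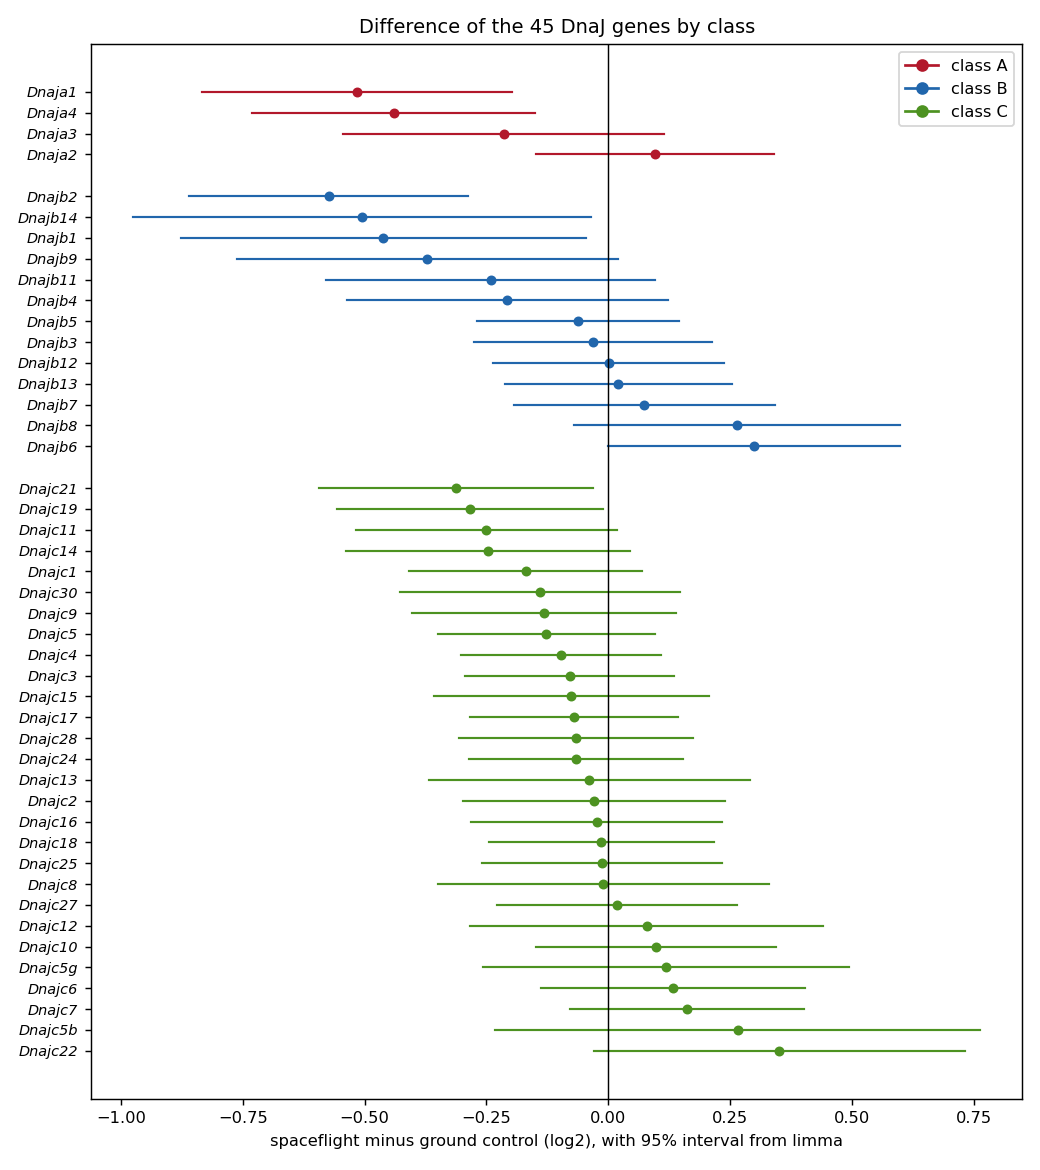
Difference between spaceflight and ground control (horizontal axis, log2) for each of the 45 DnaJ genes, ordered within classes A, B and C. Points are differences and lines are 95% intervals from limma, with no adjustment for the number of genes. The intervals of 7 genes lie below 0 and that of Dnajb6 lies just above it.

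By class, the median difference was -0.33 over the 4 class A genes, -0.06 over the 13 of class B and -0.05 over the 28 of class C, and -0.25, 0.02 and 0.03 with 75th-percentile centring. At an unadjusted p under 0.05, 2 of 4 class A, 3 of 13 class B and 2 of 28 class C members were lower. The shares of class B and C were 23.1% and 7.14%, against 7.00% of all genes and 12.6% of those in the upper tercile, where all 4 class A genes lie. Without spaceflight replicates 1 and 3 the medians were -0.19, -0.04 and 0.00, and 2, 1 and 0 members were lower at that threshold. The single class B member was Dnajb2. Of all genes 3.68% were lower at that threshold without those replicates. Spaceflight replicate 1 was the lowest array for 18 of 45 members (40.0%, against 22.9% of all genes and 37.6% of those in the upper tercile), and replicate 3 for 10 (22.2%, against 21.5% and 40.6%).

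**Figure D5:**
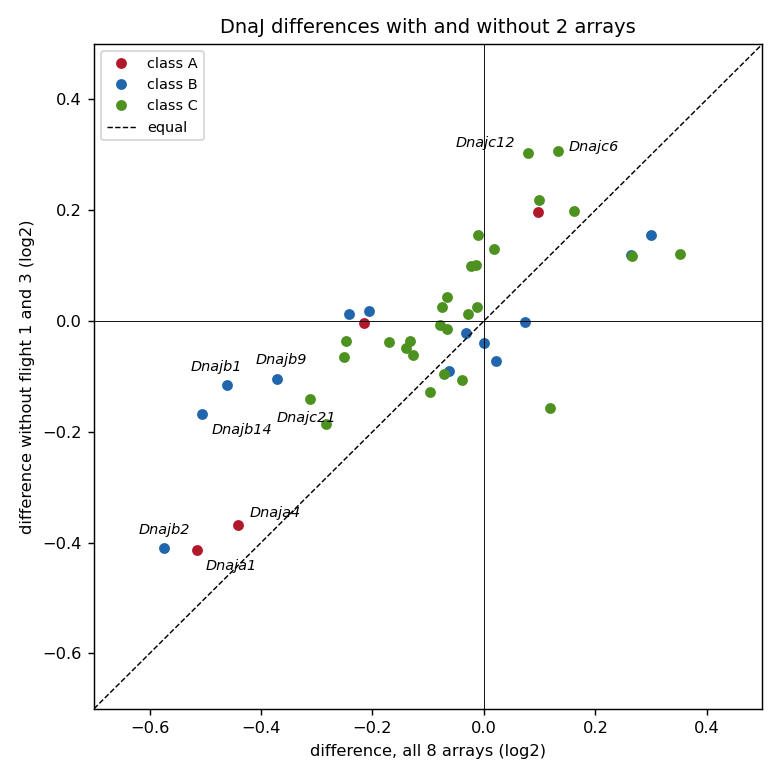
Difference of each of the 45 DnaJ genes with all 8 arrays (horizontal axis, log2) against the difference without spaceflight replicates 1 and 3 (vertical axis, log2), with a dashed line where they are equal. Dnajb2, Dnaja1 and Dnaja4 keep differences of -0.41 to -0.37, while Dnajb1 and Dnajb14 move to -0.12 and -0.17.

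Partners of DnaJ proteins were examined in the same fit. Of 28 measured Hsp70 and Hsp110 genes, Hsp70 co-factors and J-domain genes named otherwise, 24 had a lower mean (20 with 75th-percentile centring), with a median of -0.19. Of all genes 53.5% had a lower mean, and 78.2% of those in the upper tercile of signal, where 19 of the 28 lie. At an unadjusted p under 0.05, 8 were lower and 0 higher, where 7.00% and 3.05% of all genes were, and 12.6% of the upper tercile were lower. Without spaceflight replicates 1 and 3 the median was -0.10, with 7 lower and 1, Hscb, higher at that threshold. Of all genes 3.68% were then lower and 3.27% higher. With all arrays 1 gene, the Hsp110 gene Hsph1, fell in the test over all probe sets (-1.89; limma adjusted p = 0.00200). The others at an unadjusted p under 0.01 were Hspa8, the constitutive cytosolic Hsp70 (-0.63), and St13, which stabilises its client-bound state (-0.65). Hspa4l, a testis-enriched Hsp110 (-0.61), the nucleotide exchange factor Hspbp1 (-0.55), the ER Hsp110 Hyou1 (-0.56) and BiP itself, Hspa5 (-0.53), completed them. All 14 Hsp70 and Hsp110 genes had a lower mean, 11 of them with 75th-percentile centring. The 3 J-domain genes named without the prefix, Hscb, Gak and Sec63, differed by 0.01 to 0.15, and Hscb by 0.48 without spaceflight replicates 1 and 3.

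Markers of other cells also had lower means, as 53.5% of all genes did and 78.2% of those in the upper tercile. All 7 fat markers measured had a lower mean in spaceflight, 4 of them at an unadjusted p under 0.05, where 7.00% of all genes were lower and 12.6% of the upper tercile, with summed linear values of 2212 to 4288 in spaceflight and 3976 to 5259 on the ground. For cortical epithelium 5 of 6 were lower, 3 at that threshold, with sums of 4012 to 5804 and 5277 to 5652, and for thymocytes 9 of 9 were lower (8 with 75th-percentile centring), 1 at that threshold, with sums of 16940 to 19420 and 19280 to 20860. All 6 muscle markers were lower, 1 at that threshold, with sums of 495 to 2798 and 1594 to 3106. All 3 liver markers were lower, 2 at that threshold, with sums of 105 to 146 and 165 to 1202. All 4 macrophage and dendritic markers and both B cell markers had lower means as well, with none at that threshold. Without spaceflight replicates 1 and 3 the median differences of these last lists turned from -0.29 to 0.06 and from -0.19 to 0.19, and Cd68 was higher by 0.34 at an unadjusted p under 0.05. The medians of the fat, cortical epithelium, thymocyte, muscle and liver lists were then -0.42, -0.18, -0.06, -0.44 and -0.88. Their part in the differences of DnaJ genes was not tested.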

How the data were processed

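RNA of 8 thymus samples was hybridised to Affymetrix arrays after 6 µg of total RNA had been made into biotin-labelled cRNA, per the labels' protocols. The authors deposited log2 values for 35557 probe sets, and RMA and limma are named in the submitters' processing notes, without versions or build. A continuous block of 6614 probe sets at the low end of the identifiers, none with a gene in the annotation, was treated as control-like and left out, leaving 28943. Symbols were updated through Entrez identifiers with the RefSeq table of GRCm38.p6. Spaceflight was set against ground control by limma's moderated linear model (version 3.58.1, run under R 4.3.3), two-sided and without a replicate block, and p-values were adjusted by Benjamini-Hochberg over all 28943 probe sets, with a threshold of 0.05. The procedure was tested on simulated data with independent noise in each probe set. That simulation had no arrays of narrower spread, so it does not cover that feature of the real arrays. No 2 arrays were identical. Signals of different probe sets were not compared as amounts.

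Members, compartments, stress-inducible groups, partner and marker lists were chosen with earlier results of these data known. Values per array are given for members at an unadjusted p under 0.01 and for the 4 of smallest p in each class. Differences with errors are given for members at an unadjusted p under 0.05, the brightest of each compartment and the stress-inducible groups, and partners are named at an unadjusted p under 0.01. Dnajb9's arrays and other members' differences were added after the values were seen. Hspa1b of the partner list had no single-gene probe set. The number of arrays limits the precision. Alternatives were other centring, repeated quantile normalization, array weights, a variance trend, filters, other probe set choices, a replicate block and leaving arrays out.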

Additional observations from a re-analysis of the deposited data

Results flagged for a closer look

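Of 90 groups of 4 arrays examined (45 members, 2 groups each), 5 held an array far from the other 3, by a gap whose share of the group's range passed Dixon's 95% critical value. Chance gives about 1 in 20. For Dnajb14, ground-control replicate 2 was low at 6.62, where the next array was at 7.04. For Dnajb8, a class B gene known from testis, spaceflight replicate 4 was low at 5.25, against 5.70 for the next. For Dnajc17, spaceflight replicate 2 was low at 6.92, against 7.02. For Dnajc15, a mitochondrial inner membrane protein, spaceflight replicate 4 was high at 8.76, against 8.40. For Dnajc18, ground-control replicate 2 was low at 6.88, against 6.94.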

How the results depend on the processing

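No member passed at an adjusted p under 0.05 in any of the 20 alternatives run, 8 of them with a single array left out. The family median ran from -0.08 to -0.03 when single arrays were left out, and was 0.0128 with arrays centred on their 75th percentiles. The count of lower members at an unadjusted p under 0.05 ran from 3 to 11 when single arrays were left out and was 3 without spaceflight replicates 1 and 3. Without spaceflight replicate 4, which gave the 11, 10.4% of all genes were lower and 5.63% higher. Without spaceflight replicates 1 and 3 these shares were 3.68% and 3.27%. The count of higher members ran from 0 to 3 when single arrays were left out, with 3 without spaceflight replicate 4, and was 2 without spaceflight replicates 1 and 3. It was 0 with median centring, array weights, a variance trend, dim probe sets left out, control-like probe sets kept, probe sets with several genes admitted, or the replicate block. Dnaja1 and Dnaja4 were lower at that threshold in 20 of 20 alternatives, Dnajb2 in 19 of the 19 that could test it, and Dnajb1 in 14 of 20. Direction reversed for Dnajb14 with probe sets of several genes admitted (0.21), and for Dnajb11 (0.0134) and Dnajb4 (0.0172) without spaceflight replicates 1 and 3. The cause was not tested. The labels share replicate numbers but do not say that these pair the mice, so the numbers were not taken as pairs. Deviations of same-numbered arrays correlated at 0.25, -0.40, -0.29 and 0.10. These values cannot decide whether mice were paired, because spaceflight replicates 1 and 3 also differed in spread. With the replicate block 5 members were lower and 0 higher.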
